A study of Mus musculus with 4 samples.

Results

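The proteasome and immunoproteasome genes described here are the mouse features whose symbols start with Psma, Psmb, Psmc, Psmd, Psme, Psmf or Psmg and a digit. They had to have at least 100 unique molecular identifiers (UMIs) summed over the 4 libraries. In all, 50 of 32285 features matched the symbols and 48 reached that sum, against 12231 features of any name. Psma8, a testis form of an alpha subunit, with 4 UMIs and Psmb11, the beta subunit of thymic cortical epithelium, with 12 UMIs did not reach it. Of the 48, 46 are subunits, activators, assembly chaperones or an inhibitor of the proteasome. Psmc3ip, a recombination factor, shares the symbol pattern only, and Psme2b, a near-identical copy of Psme2, was not counted among the subunits. All 48 had UMIs in each of the 4 libraries.

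The data are single-cell 3′ RNA libraries (10x Genomics v3.1) of CD8 T cells that carry CD90.1 and CD44, sorted by flow cytometry from tumour-draining lymph nodes of C57BL/6 mice 14 days after tumour implantation. The C6M9 group, labelled as low-affinity GP33, used nodes of 35 mice, and the M9 group, labelled as high-affinity GP33, used nodes of 10 mice. GP33 is a peptide of a viral glycoprotein that CD8 T cells recognise on MHC class I. Each group has 2 libraries, which the labels call biological duplicates, and the labels do not give how the mice were divided between them. All groups share the tissue, day, sort and strain, and every p-value below measures the spread between 2 pooled libraries a group, which may be technical.

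The proteasome is a barrel of alpha and beta rings that cuts proteins tagged with ubiquitin, with a regulatory cap whose base unfolds the substrate and whose lid removes the tag. Interferon replaces the 3 cutting subunits Psmb5, Psmb6 and Psmb7 with the immune subunits Psmb8, Psmb9 and Psmb10, a form that lymphocytes also carry without stimulation and that yields many of the peptides shown on MHC class I. Psme1 and Psme2 together form an alternative cap, which interferon also raises. Proteasome genes are known to rise in T cells that grow and divide after activation.

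The promoters of the 3 immune subunits and of 2 of the subunits they replace are shown because the exchange between these subunits is compared across libraries and cell states below. Each is the 300 bases from 250 before to 50 after the gene's RefSeq start, 5′ to 3′ on the gene's strand, on GRCm38.p6. The gene bounds given further below come from another annotation. There Psmb8 begins at 34197721 and Psmb9 at 34187764, upstream of their RefSeq starts. The windows of these 2 genes thus lie inside those bounds, and sequence before the outer starts was not searched. They lie at chr17:34197945-34198244 (plus strand), chr17:34187281-34187580 (minus strand), chr8:105938343-105938642 (minus strand), chr14:54617946-54618245 (minus strand) and chr11:70525107-70525406 (plus strand). Capitals mark a match, on either strand, to an interferon-gamma activated site (TTCNNNGAA, in Psmb8) or an antioxidant response element (TGACNNNGC, in Psmb5 and Psmb6). Psmb9 and Psmb10 held no match to these or to a short interferon-stimulated response element (GAAANNGAA) in this window.
Psmb8: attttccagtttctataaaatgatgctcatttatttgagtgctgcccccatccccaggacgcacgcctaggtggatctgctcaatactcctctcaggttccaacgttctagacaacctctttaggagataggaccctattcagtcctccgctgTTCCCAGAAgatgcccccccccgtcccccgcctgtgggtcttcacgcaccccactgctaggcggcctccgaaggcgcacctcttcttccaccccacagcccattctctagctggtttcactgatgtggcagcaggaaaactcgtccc
Psmb9: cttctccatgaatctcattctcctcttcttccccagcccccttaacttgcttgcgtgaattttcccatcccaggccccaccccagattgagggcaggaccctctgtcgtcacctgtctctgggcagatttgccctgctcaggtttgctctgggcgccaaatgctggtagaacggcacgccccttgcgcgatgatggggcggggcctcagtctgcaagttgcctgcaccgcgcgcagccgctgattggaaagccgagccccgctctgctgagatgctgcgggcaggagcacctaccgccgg
Psmb10: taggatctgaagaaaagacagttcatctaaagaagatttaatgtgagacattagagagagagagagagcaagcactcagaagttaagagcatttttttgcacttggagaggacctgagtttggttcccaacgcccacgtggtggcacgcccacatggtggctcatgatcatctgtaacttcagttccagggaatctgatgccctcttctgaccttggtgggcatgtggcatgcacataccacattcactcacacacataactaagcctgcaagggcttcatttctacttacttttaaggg
Psmb5: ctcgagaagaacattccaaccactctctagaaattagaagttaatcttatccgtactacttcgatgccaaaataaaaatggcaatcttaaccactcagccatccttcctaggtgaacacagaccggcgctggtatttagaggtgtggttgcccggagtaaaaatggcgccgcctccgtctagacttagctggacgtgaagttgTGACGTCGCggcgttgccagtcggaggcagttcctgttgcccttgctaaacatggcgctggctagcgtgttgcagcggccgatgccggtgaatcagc
Psmb6: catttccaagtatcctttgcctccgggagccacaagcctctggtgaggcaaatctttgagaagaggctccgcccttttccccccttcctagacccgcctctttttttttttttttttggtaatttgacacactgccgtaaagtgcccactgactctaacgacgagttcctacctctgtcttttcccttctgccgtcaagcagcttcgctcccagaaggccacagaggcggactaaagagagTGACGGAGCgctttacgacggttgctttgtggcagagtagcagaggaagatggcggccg

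Of the 48 genes, 41 matched the promoter table by symbol, and Psmb1, Psmb2, Psmb7, Psmc3, Psmd3, Psmd7 and Psmg2 did not. The antioxidant response element, a site of the Nfe2l1 and Nfe2l2 family of factors, stood in 6 of the 41 promoters, or 14.6%, against 14% of all 27025 promoters. The interferon-stimulated response element stood in 7, or 17.1%, against 9.76% of all. The interferon-gamma activated site stood in 3, those of Psmb8, Psmd2 and Psmg1, or 7.32%, against 9.55% of all. The CCAAT box, the site of NF-Y, stood in 14, or 34.1%, against 41.1% of all. The motifs were searched on both strands, and a promoter counted once for each motif.

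The libraries held 33680632 to 79174624 UMIs each. After the filters on cells, 9924 T cells remained, 1200 to 4101 a library, with a median of 13205 to 21476 UMIs a cell. Between 0 and 4 cell barcodes were shared by any pair of libraries. Cd8a was present in every library at 517 to 581 CPM, and Cd4 was between 1.1 and 3.2 CPM. The T cells fell into 9 clusters, of which 8 could be named from their markers: 2 cycling-like, 2 TCR-activated-like (T cell receptor) and 1 each effector-like, interferon-like, memory-like and killer-lectin-like. Cluster 5, led by Kcnc1 and Izumo1r, stayed unnamed. Of the 10 leading genes of the Xcl1-led TCR-activated-like cluster, 2 were markers of that name, Xcl1 and Tnfrsf9, and 1 was a growing-blast marker, Srm. Growth genes on no list, such as Mettl1, Pus7 and Nop16, also led it, so its name rests on few of its leading genes, and it is described alone as well as within its class. The effector-like cluster likewise had 2 markers of its name among its 10 leading genes, Gzma and Gzmb. No proteasome gene was among the 2000 genes used to cluster the cells.

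In the sum of all T cells, proteasome genes stood slightly higher in C6M9 across the whole complex, most below the test's threshold. After TMM scaling all 48 had a positive log2 difference of C6M9 minus M9, with a median of 0.19, where the median of all 13663 genes tested was -0.01. Only Psmb10 and Psmg1 passed the test (edgeR quasi-likelihood test, Benjamini-Hochberg adjusted p under 0.05), and 0 fell; 18 of 48 had an unadjusted p under 0.05, against 23.9% of all genes. Of all genes tested, 1.59% passed and were higher in C6M9. Both C6M9 libraries stood above both M9 libraries for 42 of the 48 genes, against 26% of all genes. Levels here are in CPM, UMIs of a gene per 1000000 UMIs of the library's T cells, after TMM scaling (trimmed mean of M values, the library scaling of edgeR).

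The scaling matters for this count. Without TMM, 43 of 48 differences were positive, 27 genes did not overlap, all of them higher in C6M9 (16.6% of all genes were), and the median was 0.11. The genes whose sign changed without TMM were Psma6, Psmd10, Psmd11, Psmd4 and Psme4. The median difference of all genes was -0.01 with TMM and -0.07 without scaling. The 48 genes summed to 8122 and 7505 CPM in the C6M9 libraries, against 7072 and 6562 CPM in the M9 libraries; without TMM they summed to 7859.7 and 7334 CPM in C6M9 and 7079.9 and 6924 CPM in M9. The groups did not overlap on either scale, and the exact permutation test of the sum gave a p of 0.3333, the smallest that 2 libraries against 2 allow.

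**Figure D1:**
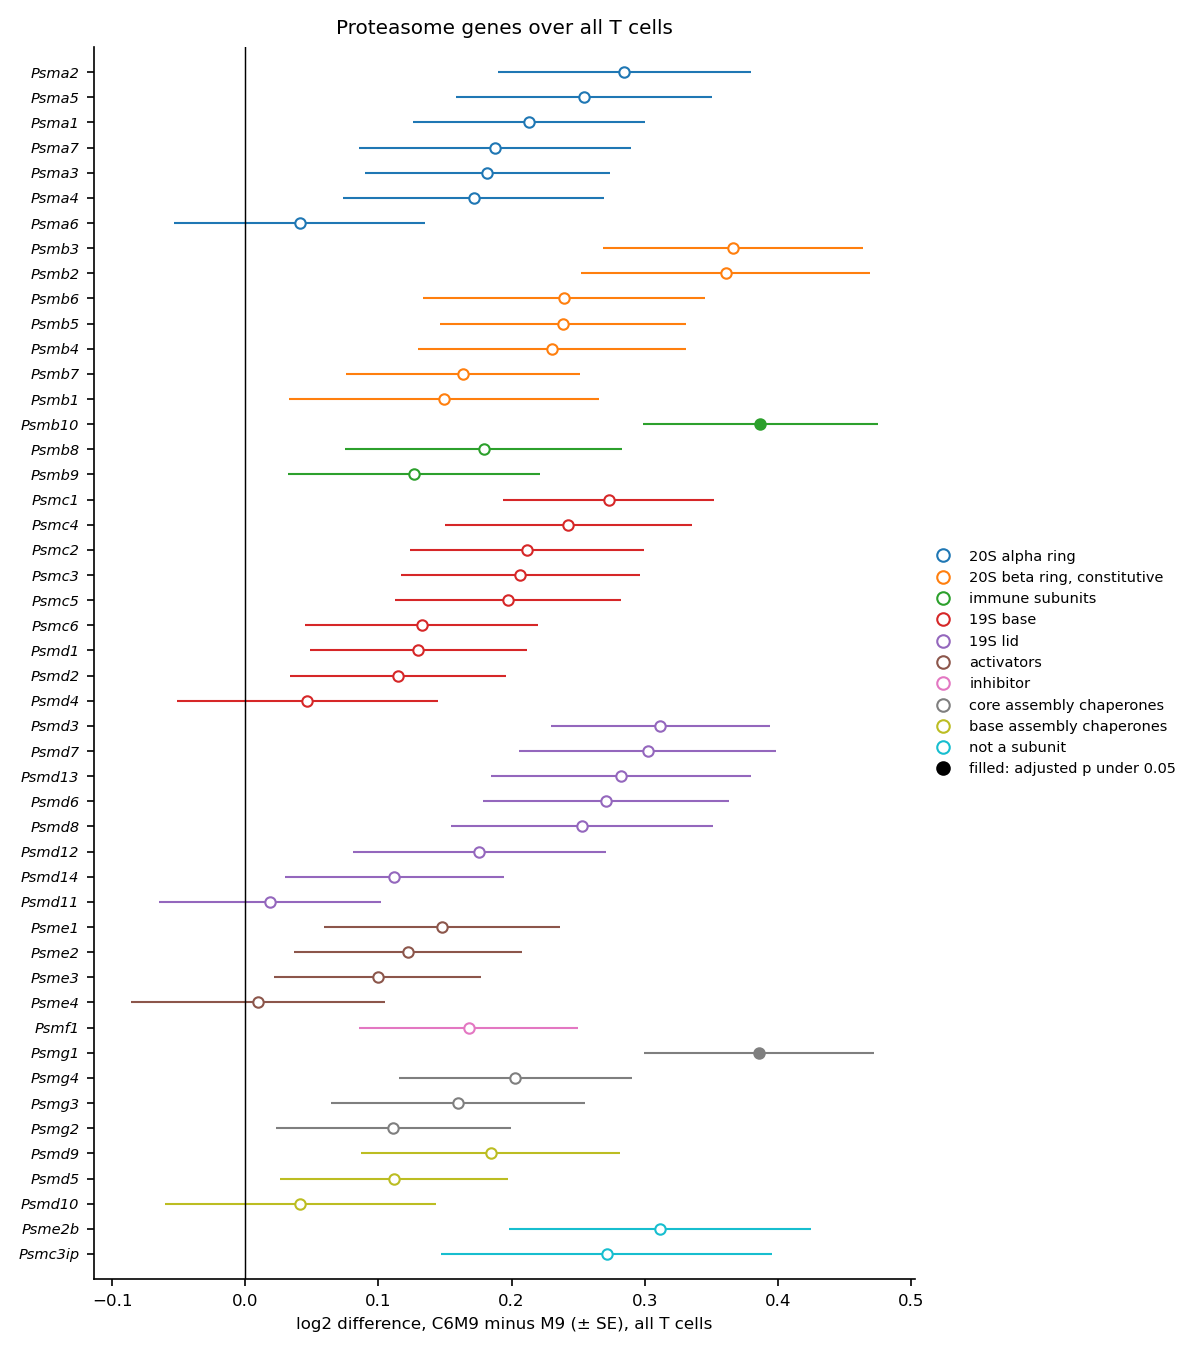
Log2 difference of C6M9 minus M9 over all T cells for each of the 48 genes, grouped by role. Every point lies above 0 with TMM scaling, 5 change sign without it, and Psmb10 and Psmg1 are the 2 that passed the edgeR test.

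Among the immune subunits, Psmb10, which replaces Psmb7, had the largest difference. Psmb10 (ENSMUSG00000031897, chr 8, 105935735 to 105938444, minus strand, GRCm38) had 168 and 167 CPM in the C6M9 libraries, against 135 and 121 CPM in the M9 libraries. Psmb8 (chr 17, 34197721 to 34201454, plus strand), which replaces Psmb5, had 695 and 661 CPM in C6M9 and 637 and 561 CPM in M9. Psmb9 (chr 17, 34181987 to 34187764, minus strand), which replaces Psmb6 and lies beside Psmb8 in the MHC region, had 289 and 280.3 CPM in C6M9 and 276 and 245 CPM in M9. All 3 stood higher in both C6M9 libraries, with the widest gap for Psmb10. Psmb10 rose by 0.39 ± 0.09 (log2, SE; edgeR adjusted p = 0.0463). Psmb8 differed by 0.18 ± 0.10 and Psmb9 by 0.13 ± 0.09, with edgeR adjusted p of 0.341 and 0.454. B cell-like cells, which were left out, held 151 CPM of Psmb10, within the 128 to 163 of the T cell libraries before scaling. Leaving out 1 library kept the sign of Psmb10 each time, from 0.31 to 0.50, with an edgeR adjusted p of 0.305 and 0.188 when C6M9 replicate 1 or C6M9 replicate 2 was left out, and of 0.00967 and 0.0587 when M9 replicate 1 or M9 replicate 2 was left out.

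Of the constitutive beta ring, the 3 subunits that cut are Psmb5, Psmb6 and Psmb7. Psmb5, the chymotrypsin-like one, had 204 and 185 CPM in the C6M9 libraries, against 171 and 158 CPM in the M9 libraries. Psmb6, the caspase-like one, had 188 and 164 CPM in C6M9 and 159 and 139 CPM in M9. Psmb7, the trypsin-like one, had 127 and 116 CPM in C6M9 and 112 and 105 CPM in M9. In each, both C6M9 libraries were above both M9 libraries, but none of the 3 passed: the differences were 0.24 ± 0.09, 0.24 ± 0.11 and 0.16 ± 0.09. Among the ring members that do not cut, Psmb3 had the highest difference at 339 and 307 CPM in C6M9 and 263 and 238 CPM in M9. Psmb2 had 203 and 184 CPM in C6M9 and 164 and 137 CPM in M9, and Psmb4 had 253 and 229.6 CPM in C6M9 and 219 and 192 CPM in M9. Those 3 did not overlap. Psmb1 had the lowest difference and overlapped, at 459.8 and 425 CPM in C6M9 and 438 and 359.8 CPM in M9. The log2 differences of the 7 ran from 0.15 for Psmb1 to 0.37 for Psmb3, and 0 of 7 passed.

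The 7 alpha subunits form the outer rings that gate the barrel. Psma2 had the highest difference, at 349 and 331 CPM in C6M9 and 294 and 264 CPM in M9. Psma5 had 169 and 156 CPM in C6M9 and 145 and 127 CPM in M9, and Psma7 had 427 and 366 CPM in C6M9 and 349 and 348 CPM in M9. These did not overlap. Psma1 had 173 and 159.6 CPM in C6M9 and 148 and 139 CPM in M9. Psma3 had 287 and 266 CPM in C6M9 and 254 and 234 CPM in M9. Psma4 had 304 and 267 CPM in C6M9 and 261 and 246 CPM in M9. Each of those 3 was again higher in both C6M9 libraries. Psma6 overlapped, at 173 and 157 CPM in C6M9 and 169 and 152 CPM in M9. The log2 differences ran from 0.04 for Psma6 to 0.28 for Psma2, and 0 of 7 passed.

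In the base of the cap, the ATPases Psmc1 to Psmc6 thread the substrate into the barrel. Psmc1 had the highest difference of the base, at 78.5 and 75.1 CPM in C6M9 and 62.2 and 65.0 CPM in M9, and Psmc4 followed at 124 and 109 CPM in C6M9 and 101.2 and 95.1 CPM in M9. All 6 ATPases were higher in both C6M9 libraries, with log2 differences of 0.13 for Psmc6 to 0.27 for Psmc1. The scaffold subunit Psmd1 had 88.5 and 81.9 CPM in C6M9 and 76.7 and 79.0 CPM in M9. Psmd2, the other scaffold subunit, had 117 and 111 CPM in C6M9 and 103 and 108 CPM in M9. Neither overlapped. Psmd4, a receptor for ubiquitin chains, overlapped and had the lowest difference of the base, at 169 and 152 CPM in C6M9 and 165 and 146 CPM in M9. None of the 9 passed.

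In the lid, Psmd14 is the enzyme that cuts ubiquitin off the substrate and Psmd7 is its partner. Psmd14 had 106 and 97.6 CPM in C6M9 and 94.6 and 94.2 CPM in M9, and Psmd7 had 139.7 and 119 CPM in C6M9 and 105 and 105 CPM in M9. Psmd3, a structural subunit, had the highest difference of the lid, at 74.0 and 69.2 CPM in C6M9 and 59.3 and 56.0 CPM in M9. None of these overlapped. The structural subunits Psmd6, Psmd8, Psmd12 and Psmd13 were also higher in both C6M9 libraries, with log2 differences of 0.18 for Psmd12 to 0.28 for Psmd13. Psmd11 overlapped and had the lowest difference, at 99.9 and 91.4 CPM in C6M9 and 93.0 and 95.9 CPM in M9. None of the 8 passed.

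Of the activators, Psme1 and Psme2, which form the interferon-raised cap, had small differences. Psme1 had 510.1 and 508 CPM in the C6M9 libraries, against 463 and 457 CPM in the M9 libraries. Psme2 had 289.5 and 276 CPM in the C6M9 libraries, against 263 and 256 CPM in the M9 libraries. Both did not overlap, and neither passed, with 0.15 ± 0.09 and 0.12 ± 0.09. Psme3, whose ring sits in the nucleus, had 49.7 and 50.1 CPM in C6M9 and 46.1 and 47.0 CPM in M9 and did not overlap. Psme4, a single-chain nuclear activator, overlapped at 37.7 and 34.4 CPM in C6M9 and 33.9 and 37.9 CPM in M9, with the lowest difference of all 48 genes at 0.01. Psmf1, an inhibitor of the core in vitro, had 27.1 and 27.4 CPM in C6M9 and 24.3 and 24.2 CPM in M9.

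The chaperones that build the complex are not part of the finished particle. Psmg1, which pairs with Psmg2 to hold the alpha ring, had 41.1 and 37.6 CPM in the C6M9 libraries, against 30.3 and 29.9 CPM in the M9 libraries, the groups did not overlap, and it rose by 0.39 ± 0.09 (edgeR adjusted p = 0.0432). Without C6M9 replicate 1 the difference of Psmg1 was 0.32 (edgeR adjusted p = 0.365), and without C6M9 replicate 2 it was 0.45 (edgeR adjusted p = 0.108). Psmg2 had 43.3 and 42.6 CPM in C6M9 and 37.6 and 42.0 CPM in M9. Psmg3 had 30.2 and 28.5 CPM in C6M9 and 27.8 and 24.6 CPM in M9, and its partner Psmg4 had 59.9 and 54.5 CPM in C6M9 and 51.3 and 48.0 CPM in M9. Psmg2 had the lowest difference of the 4 at 0.11. Of the base chaperones, Psmd9 had 39.9 and 39.7 CPM in C6M9 and 37.7 and 32.2 CPM in M9 and Psmd5 had 29.4 and 27.7 CPM in C6M9 and 26.0 and 26.9 CPM in M9. Psmd10 overlapped, at 40.04 and 36.3 CPM in C6M9 and 39.7 and 34.3 CPM in M9, and 0 of 3 base chaperones passed. Psme2b had 23.8 and 25.1 CPM in C6M9 and 17.8 and 21.8 CPM in M9, and its UMIs cannot be told apart from those of Psme2 with certainty. Psmc3ip had 17.03 and 13.7 CPM in C6M9 and 12.2 and 13.4 CPM in M9. When C6M9 replicate 1 or C6M9 replicate 2 was left out, 0 of 48 genes passed. Leaving out M9 replicate 1 gave 11, and leaving out M9 replicate 2 gave 2, Psmg1 and Psme2b.

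Because immune and constitutive subunits replace each other, their ratio was taken within each library: log2 of the UMIs of Psmb8, Psmb9 and Psmb10 over those of Psmb5, Psmb6 and Psmb7. Over all T cells it was 1.15 and 1.25 in C6M9 and 1.24 and 1.21 in M9, the groups overlapped, and the difference of C6M9 minus M9 was -0.02 (exact permutation p = 1). The 3 pairs went different ways. Psmb10 over Psmb7 was 0.40 and 0.53 in C6M9 and 0.27 and 0.21 in M9, higher in both C6M9 libraries. Psmb9 over Psmb6 was 0.62 and 0.77 in C6M9 and 0.79 and 0.82 in M9, lower in both. Psmb8 over Psmb5 was 1.77 and 1.84 in C6M9 and 1.89 and 1.83 in M9 and overlapped. The exact permutation p was 0.3333 for each of the first 2 pairs, the smallest possible here, and 0.667 for Psmb8 over Psmb5. TMM scaling cancels in these ratios.

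The same ratio set the cell states further apart than the groups. It was lowest in the TCR-activated-like cluster led by Xcl1 and Srm, at 0.56 and 0.57 in C6M9 and 0.70 and 0.73 in M9. In the cycling-like cluster led by histone genes it was 0.83 and 1.01 in C6M9 and 0.81 and 0.77 in M9. In both, every library lay below its own value over all T cells. It was highest in interferon-like cells, at 2.01 and 1.85 in C6M9 and 2.19 and 2.08 in M9. Killer-lectin-like cells had 1.66 and 1.71 in C6M9 and 1.77 and 1.85 in M9, and cluster 5 had 1.52 and 1.76 in C6M9 and 1.73 and 1.74 in M9. In these 3 states every library lay above its value over all T cells. Between these ends lay the effector-like cells with a mean over libraries of 0.98, the cycling-like Ccnb2-led cells with 1.15, the TCR-activated-like cells led by Tnfrsf4 and Egr3 with 1.34 and the memory-like cells with 1.52. Of these, the effector-like cells also lay below, and the memory-like cells above, the value over all T cells in every library. These are levels of clusters of the same cells and were not tested. Across the 9 states, both C6M9 libraries were higher than both M9 libraries for Psmb10 over Psmb7 in 7 and lower in 0, while for Psmb9 over Psmb6 they were higher in 0 and lower in 6. For Psmb8 over Psmb5 they were higher in 3 and lower in 5, and for the ratio of all 3 pairs higher in 3 and lower in 3. Such a separation of 2 libraries against 2 has an exact permutation p of 0.3333 at the lowest.

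**Figure D2:**
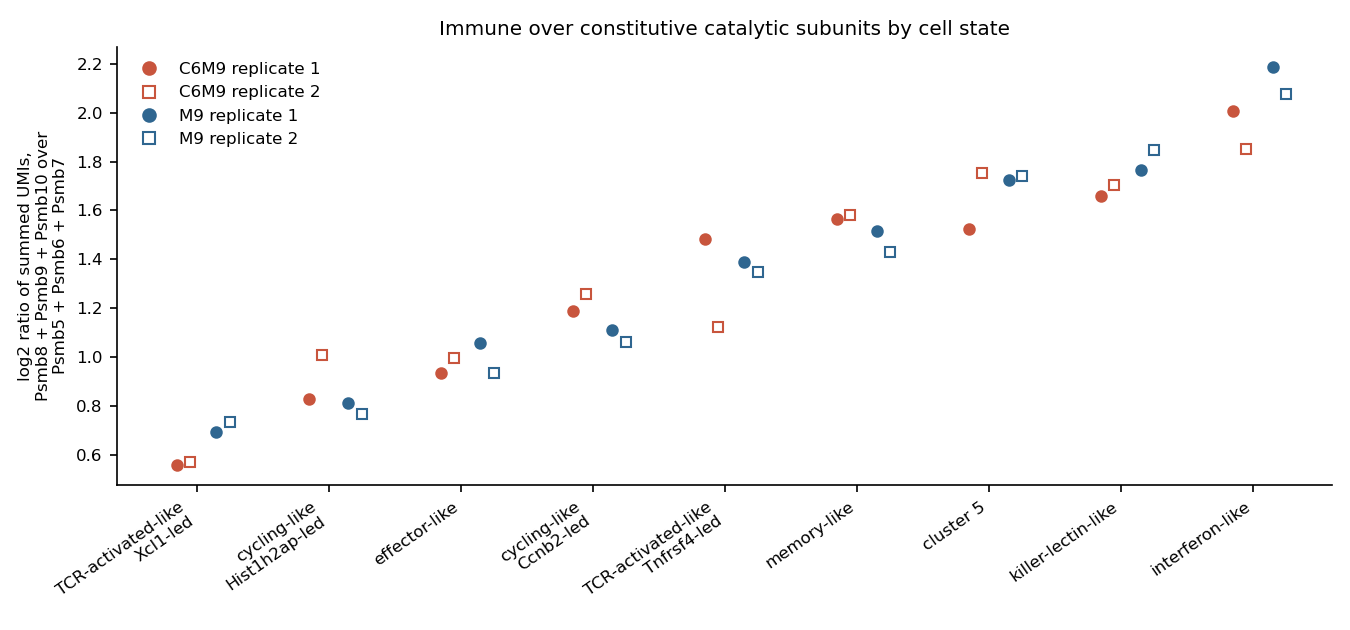
Log2 ratio of immune (Psmb8, Psmb9, Psmb10) to constitutive (Psmb5, Psmb6, Psmb7) catalytic subunits in each cell state, 1 point a library, C6M9 and M9 by colour. The states run from 0.64 in the Xcl1-led to 2.03 in the interferon-like cells as means over libraries. Within states the groups lie closer together than these ends. Both C6M9 libraries are higher than both M9 libraries in 3 of 9 states and lower in 3.

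The constitutive core, which is the sum of the alpha ring and the 7 constitutive beta subunits, was highest in the histone-led cycling-like, the Xcl1-led and the effector-like cells. It summed to 4592 and 3869 CPM in C6M9 and 4346 and 3746 CPM in M9 in the histone-led cycling-like cells. In the Xcl1-led TCR-activated-like cells it summed to 4626 and 4323 CPM in C6M9 and 4068 and 3451 CPM in M9. Effector-like cells had 4619 and 4207 CPM in C6M9 and 4011 and 3647 CPM in M9, where M9 replicate 2 held 13 cells. Nearly all effector-like cells scored in S or G2M phase. Of 137 and 70 such cells in C6M9, 1 and 1 were in neither phase, and of 116 and 13 in M9, 11 and 0. The part of cell cycle phase in their level was not tested. In killer-lectin-like cells the core summed to 2547 and 2363 CPM in C6M9 and 2164 and 1832 CPM in M9, and in cluster 5 to 2577 and 2338 CPM in C6M9 and 2345 and 1908 CPM in M9. The 3 high states did not overlap with these 2 low ones in any library. By the mean over the 4 libraries, the lid and base of the cap were highest in effector-like cells, at 2856 and 2591 CPM in C6M9 and 2454 and 2568 CPM in M9. Next came the histone-led cells, and the lowest were killer-lectin-like cells, with 2668 and 2221 CPM in C6M9 and 2568 and 2385 CPM in M9 in the histone-led cells and 1369 and 1312 CPM in C6M9 and 1227 and 1081 CPM in M9 in killer-lectin-like cells. Median UMIs per cell also differed between states: relative to all cells of the library they were 2.85 in the histone-led, 2.87 in the effector-like and 1.48 in the Xcl1-led cells, and 0.916 in killer-lectin-like cells and 0.803 in cluster 5. They did not follow the core throughout: memory-like cells had the lowest, at 0.741, with a core of 2884 and 2693 CPM in C6M9 and 2984 and 2380 CPM in M9, and the Ccnb2-led cells had 1.50, close to the Xcl1-led, with a core of 3799 and 3670 CPM in C6M9 and 3708 and 3458 CPM in M9. The levels are per total UMIs, and the part of cell size and depth in the order was not tested.

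The immune subunits followed the order of the core only in part. They summed to 1409.9 and 1334 CPM in C6M9 and 1434 and 1246 CPM in M9 in interferon-like cells, the highest mean over libraries, where the constitutive core was low at 2874 and 2872 CPM in C6M9 and 2646 and 2477 CPM in M9. In the Xcl1-led cells, whose core was high, they summed to 981 and 964 CPM in C6M9 and 984 and 813 CPM in M9. Other states with a high core had higher immune sums than the Xcl1-led cells. The means over libraries were 1217 CPM in effector-like, 1203.5 in Ccnb2-led and 1121 in histone-led cells, against 936 in the Xcl1-led cells. The genes of the interferon-induced cap had another order than the immune subunits. Psme1 and Psme2 together were highest in the Xcl1-led cells, at 1333 and 1379 CPM in C6M9 and 1176 and 1099.9 CPM in M9. They summed to 666 and 647 CPM in C6M9 and 516 and 489.6 CPM in M9 in killer-lectin-like cells. Both C6M9 libraries were above both M9 libraries in each of these 2 states.

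**Figure D3:**
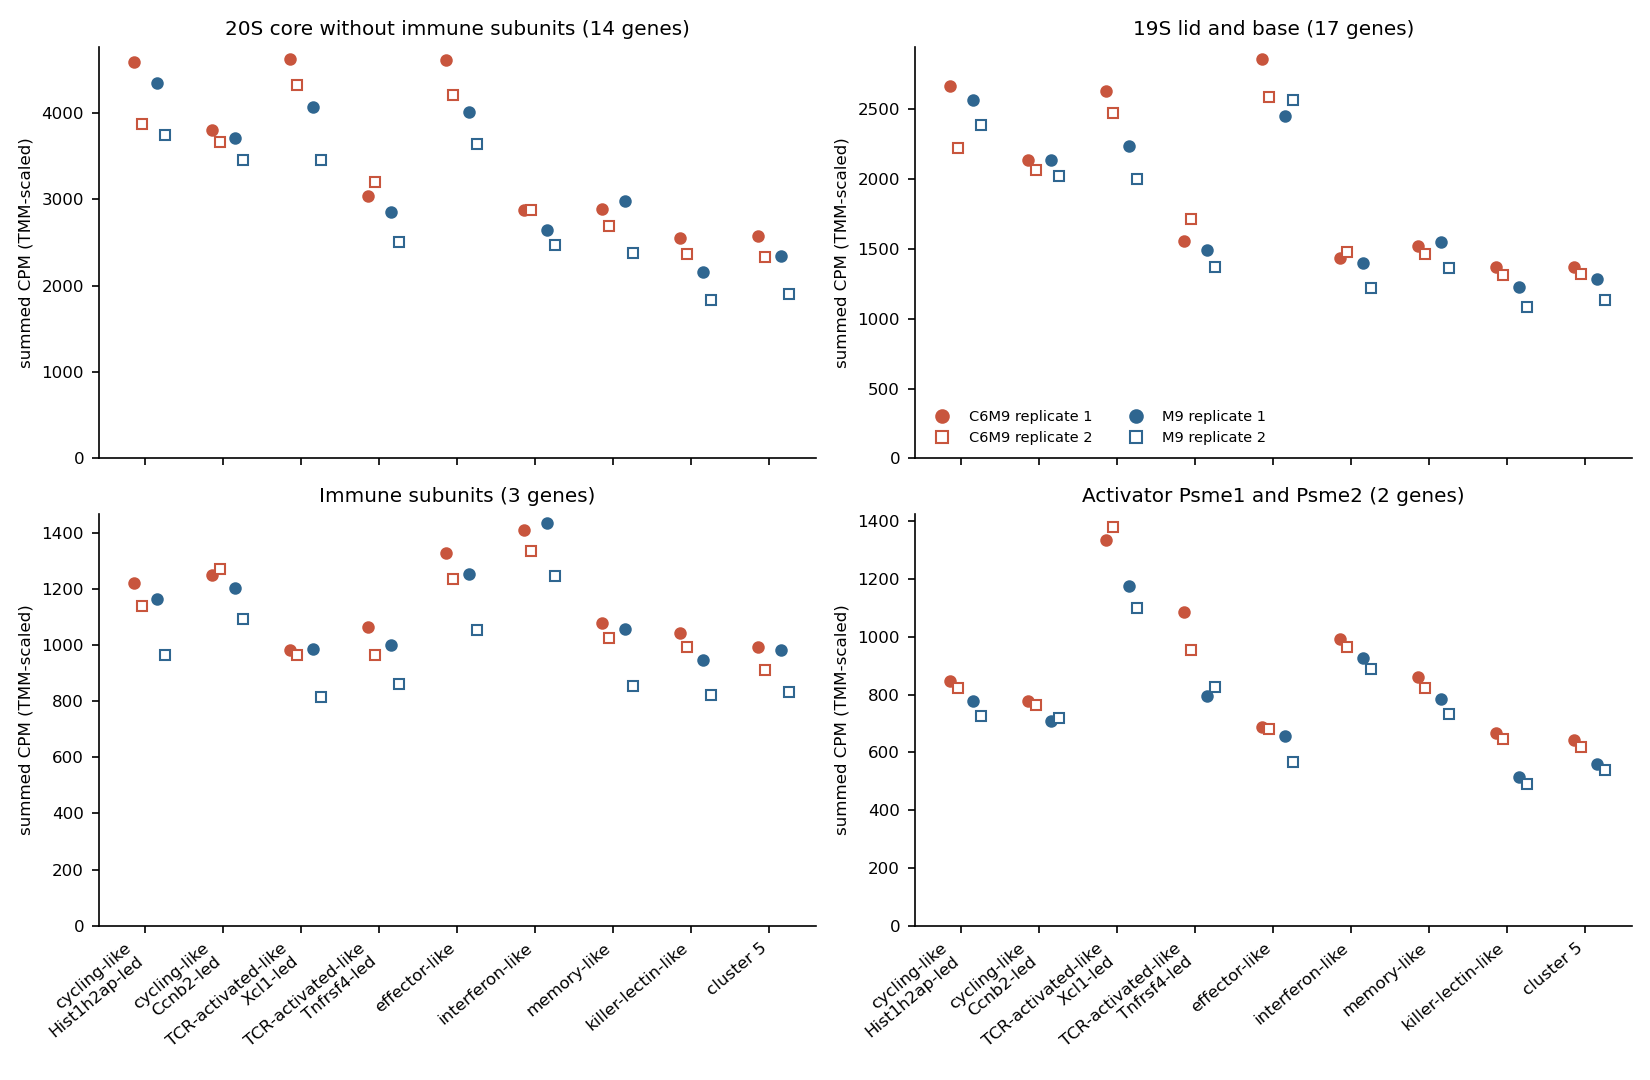
Summed TMM-scaled level (CPM) of the constitutive core, the 19S lid and base, the immune subunits and Psme1 with Psme2 in each of 9 cell states, 1 point a library, C6M9 and M9 by colour. The core and cap sums are high in the histone-led, Xcl1-led and effector-like cells, while the immune sum peaks in the interferon-like cells.

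Single genes showed where the roles part. Psmb10 had 263 and 246 CPM in the C6M9 libraries, against 247 and 216 CPM in the M9 libraries in interferon-like cells. In cluster 5, its lowest state, it had 134 and 136 CPM in C6M9 and 114 and 96.5 CPM in M9. Every library was thus higher in the interferon-like cells. Psmb8 was also highest in interferon-like cells, at 819 and 777 CPM in C6M9 and 847 and 728 CPM in M9. It was lowest in the Tnfrsf4-led cells, at 615 and 526 CPM in C6M9 and 589 and 499 CPM in M9. Psmb9 differed from both: its highest state was the Ccnb2-led cycling-like cells, at 358 and 362 CPM in C6M9 and 341 and 304 CPM in M9. Its lowest was the Xcl1-led cells, at 192 and 190.2 CPM in C6M9 and 248 and 209 CPM in M9, with all 4 libraries below those of the Ccnb2-led cells.

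Psmb5 was highest in the Xcl1-led cells, at 284 and 276 CPM in C6M9 and 248 and 212 CPM in M9. It was lowest in killer-lectin-like cells, at 132 and 123 CPM in C6M9 and 117 and 90.9 CPM in M9. Psme2 had the same highest and lowest states, with a wider span. It had 576 and 579 CPM in C6M9 and 510.0 and 474 CPM in M9 in the Xcl1-led cells. In killer-lectin-like cells it had 206 and 203 CPM in C6M9 and 147 and 136 CPM in M9. Psme1 spanned less, with 757 and 799.6 CPM in C6M9 and 666 and 626 CPM in M9 in the Xcl1-led cells and 459 and 444 CPM in C6M9 and 369 and 354 CPM in M9 in killer-lectin-like cells. The nuclear activator Psme3 had the widest span of the subunits and cofactors, with 98.5 and 109.8 CPM in C6M9 and 98.7 and 92.3 CPM in M9 in the Xcl1-led cells. In cluster 5 it had 23.3 and 29.8 CPM in C6M9 and 30.3 and 26.8 CPM in M9. The chaperone Psmg1 had 60.9 and 66.3 CPM in C6M9 and 51.9 and 43.1 CPM in M9 in the Xcl1-led cells and 16.1 and 22.5 CPM in C6M9 and 16.0 and 14.6 CPM in M9 in cluster 5.

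**Figure D4:**
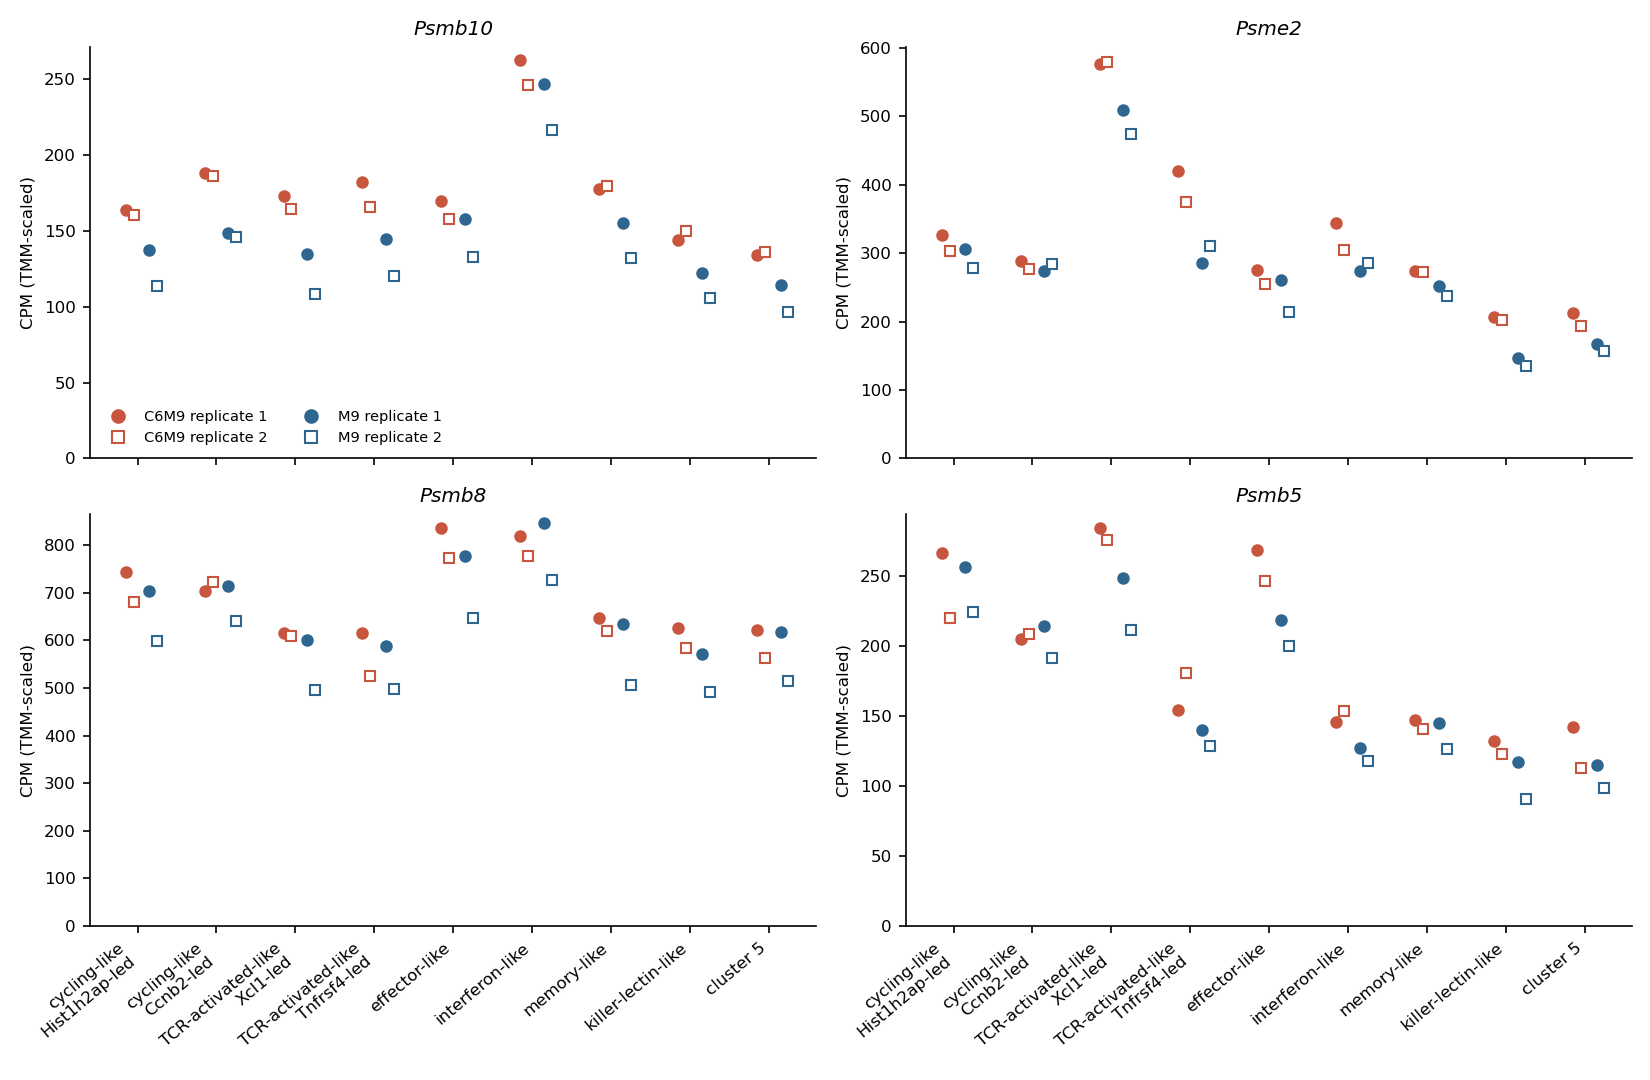
TMM-scaled level (CPM) of Psmb10, Psme2, Psmb8 and Psmb5 in each cell state, 1 point a library, C6M9 and M9 by colour. Psmb10 and Psmb8 peak in interferon-like cells, Psme2 and Psmb5 in the Xcl1-led cells.

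The fold between the highest and the lowest of 8 states, by means over libraries and without the effector-like cells, described how evenly each role was held. Its median was 2.23 for the base, 2.19 for the lid, 2.18 for the alpha ring and 2.13 for the constitutive beta ring. It was larger for the core chaperones, at 2.46, and the activators, at 2.42. It was smaller for the immune subunits, at 1.63, the base chaperones, at 1.45, and Psmf1, at 1.46. Within a complex some members stood out from their neighbours: Psmb1 spanned 1.20-fold and Psmd4 1.23-fold, and Psme4 among the activators 1.19-fold. Psmb1 was highest in memory-like cells, at 491 and 457 CPM in C6M9 and 522 and 372 CPM in M9. It was lowest in the Xcl1-led cells, at 439 and 345 CPM in C6M9 and 421 and 329 CPM in M9, and the libraries of the 2 states overlapped. The widest spans were 3.63 for Psme3, 3.22 for Psmg1, 3.09 for Psme2, 2.97 for Psmd1, 2.96 for Psmd7 and 2.79 for Psma6. Psmc3ip, which acts in recombination, spanned 16.4-fold, from a mean of 2.05 CPM in killer-lectin-like to 33.7 CPM in the histone-led cells. Its lowest level rests on few UMIs. Psme2b spanned 3.997-fold, with its highest level in interferon-like cells. In all, 20 genes were highest in the Xcl1-led and 20 in the histone-led cells, while 27 were lowest in killer-lectin-like cells and 14 in cluster 5.

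Each state was also set against the other T cells of the same library, on CPM without TMM. In the histone-led cycling-like cells 40 of 48 genes were higher in 4 of 4 libraries and 4 were lower in 4 of 4. Of all genes, 26.9% were higher and 40.3% lower there. In the Ccnb2-led cycling-like cells 29 were higher and 5 lower, against 18.4% and 31% of all genes, and in the Xcl1-led cells 32 and 5, against 21.2% and 34.9%. In effector-like cells 41 were higher and 2 lower, against 27.4% and 33%. In the other 5 states more of the 48 genes were lower than higher. In the Tnfrsf4-led cells 4 were higher and 25 lower, against 14% and 25.1% of all genes, and in memory-like cells 3 and 41, against 13.8% and 34.3%. In interferon-like cells 5 were higher and 37 lower, against 15.2% and 32%. Killer-lectin-like cells had 2 higher and 40 lower, against 34.2% and 25.1%, and cluster 5 had 0 and 42, against 23.8% and 30%. The immune subunits parted from most of the rest in several states. In interferon-like cells 3 of 3 were higher in 4 of 4 libraries, with a median log2 difference of 0.29. In the Xcl1-led cells 0 were higher and 2 lower. In the histone-led cells 0 were higher and 1 lower, with a median of 0.02. There 9 of 9 base, 8 of 8 lid and 7 of 7 alpha subunits were higher. The 4 core chaperones were all higher in the Xcl1-led cells, with a median of 0.79. These clusters were drawn from the same cells, so no test is given.

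Within cell classes, the proteasome genes differed between the groups most in the TCR-activated-like class. There 36 of 48 rose in C6M9 and 0 fell (edgeR quasi-likelihood test on the summed UMIs of the class, Benjamini-Hochberg adjusted p under 0.05). TMM factors were set anew in each class, so the CPM of a class differ slightly from the state levels above. Of all 10025 genes tested, 13.1% rose, and the median log2 difference was 0.46 for the 48 genes and -0.02 for all genes. Both C6M9 libraries lay above both M9 libraries for 41 of 48, against 30.3% of all genes. Without TMM 42 differences were positive, and the median was 0.37. By role, 7 of 7 alpha subunits, 6 of 7 constitutive beta subunits, 8 of 9 base subunits, 6 of 8 lid subunits and 4 of 4 core chaperones rose. Of the immune subunits 1 of 3 rose, of the activators 3 of 4, of the base chaperones 0 of 3, and Psmf1 did not pass. The remaining one that rose was Psmc3ip.

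The largest of these differences, by a limit of 10 genes, were led by Psmc3ip, a recombination factor, with 23.4 and 12.1 CPM in the C6M9 libraries, against 7.40 and 8.13 CPM in the M9 libraries. It rose by 1.22 ± 0.26. Psmd7, of the lid, had 196 and 195 CPM in the C6M9 libraries, against 117 and 113 CPM in the M9 libraries and rose by 0.77 ± 0.11. All 4 core chaperones were among the 10. Psmg3 had 48.8 and 48.2 CPM in C6M9 and 30.4 and 26.2 CPM in M9 and rose by 0.76. Psmg2 had 63.2 and 69.0 CPM in C6M9 and 37.7 and 44.0 CPM in M9 and rose by 0.71. Psmg1 rose by 0.68 and Psmg4 by 0.67. In each of these the groups did not overlap. The lid subunits Psmd12, Psmd3 and Psmd6 rose by 0.65, 0.63 and 0.60, and the beta subunit Psmb2 by 0.62. The edgeR adjusted p-values of the 10 lay between 1.59e-05 and 0.00148.

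Of the subunits that exchange places in this class, the constitutive one moved further than its immune partner in 2 of the 3 pairs. Psmb5 had 251 and 248 CPM in the C6M9 libraries, against 176 and 160.2 CPM in the M9 libraries and rose by 0.57 ± 0.11. Psmb8 had 619 and 589.8 CPM in C6M9 and 583 and 501 CPM in M9, a difference of 0.16 ± 0.11 that did not pass (edgeR adjusted p = 0.343). Psmb6 had 211 and 214 CPM in C6M9 and 172 and 140.1 CPM in M9 and rose by 0.44 ± 0.12. Its partner Psmb9 had 213 and 221 CPM in C6M9 and 256 and 231 CPM in M9, a difference of -0.17 ± 0.11 (edgeR adjusted p = 0.298). The remaining pair went otherwise: Psmb10 rose by 0.42 ± 0.12 with 176 and 167 CPM in C6M9 and 138 and 117 CPM in M9, and Psmb7 by 0.34 ± 0.12 with 129.9 and 127 CPM in C6M9 and 108 and 95.3 CPM in M9. Whether partners differed from each other was not tested. Psme1 rose by 0.40 ± 0.11 and Psme2 by 0.53 ± 0.11.

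The class holds its 2 clusters in different shares in the groups. The Xcl1-led cluster, high in core genes, gave 67 and 48 cells in the C6M9 libraries and 347 and 68 in the M9 libraries, while the Tnfrsf4-led cluster, low in them, gave 42 and 33 in C6M9 and 752 and 170 in M9. Within the Xcl1-led cluster alone 3 genes rose, Psmb10 by 0.45, Psmd14 by 0.43 and Psmb2 by 0.41, where 2.6% of 8889 genes rose, and the median of the 48 was 0.26. There Psmb10 had 170.1 and 164 CPM in the C6M9 libraries, against 131 and 112 CPM in the M9 libraries (edgeR adjusted p = 0.0289), without overlap. Within the Tnfrsf4-led cluster alone 0 of 47 tested passed with edgeR, 9 had an unadjusted p under 0.05 against 10.9% of 9177 genes, 0.163% of which rose, and the median was 0.22. With both clusters weighted equally, limma gave 0 of the proteasome genes, where 48 of all 10025 genes rose. By limma on the class as it is 28 rose, where 9.75% of all genes did. Without cells in S or G2M phase 9 rose (4.85% of all genes), and the count was smaller still without C6M9 replicate 1. How much of the 36 comes from the mix of clusters was not tested further. Fewer cells of a kind and less RNA per cell cannot be told apart in such sums.

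In the other 5 classes 1 gene in all passed. In counts simulated for these classes, the edgeR test recovered 19.2% of 1.5-fold differences in cluster 5, the lowest. It recovered 53% in cycling-like cells, the highest of the 5. Smaller differences could thus be missed. In killer-lectin-like cells Psme2 had 214 and 212 CPM in the C6M9 libraries, against 155 and 149.7 CPM in the M9 libraries. The groups did not overlap, and Psme2 rose by 0.48 ± 0.09 (edgeR adjusted p = 0.0331), where 0.264% of 10611 genes rose. Psmg1 had a larger difference in this class, at 0.63 ± 0.16, and did not pass (edgeR adjusted p = 0.0883). The call in this class did not hold without C6M9 replicate 1 or replicate 2. In cluster 5, 0 of 47 tested passed with edgeR, where 0.102% of all genes rose, and 7 had an unadjusted p under 0.05, against 9.15% of all genes. In cycling-like cells 0 of 48 passed (0.474% of all genes rose), and 2 had such a p (13.4% of all genes). In interferon-like cells 0 passed (0.247%), and 8 had such a p (13.1%). In memory-like cells 0 passed (0.0198%), and 1 had such a p (7.94%). In cycling-like and memory-like cells these counts lay below the share over all genes. With 1 M9 library left out, some genes passed in cluster 5, cycling-like and interferon-like cells. The medians of the log2 differences were 0.18 in killer-lectin-like, 0.16 in cluster 5, 0.12 in interferon-like, 0.03 in memory-like and 0.02 in cycling-like cells. Without TMM the last 2 changed sign, to -0.02 in memory-like and -0.04 in cycling-like cells.

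**Figure D5:**
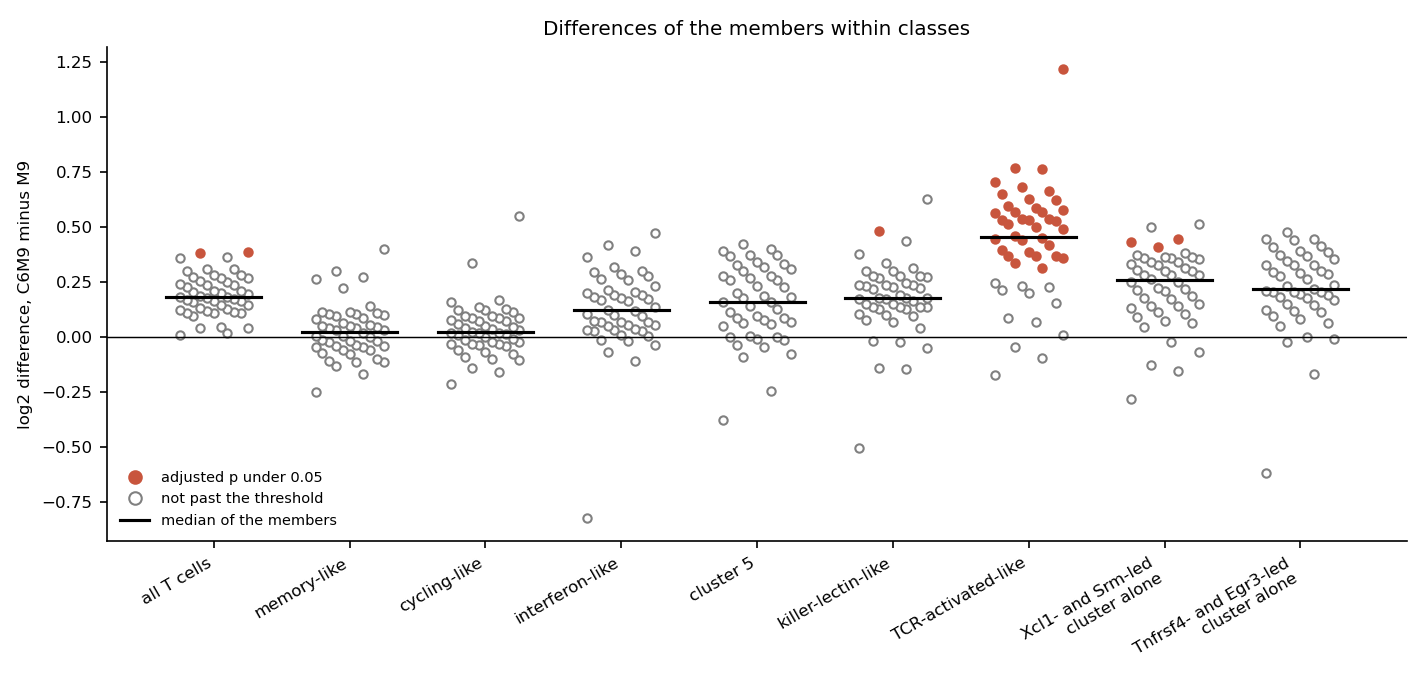
Log2 difference of C6M9 minus M9 for the 48 genes over all T cells, in 6 cell classes and in the 2 TCR-activated-like clusters alone. Filled points passed the edgeR test and bars are medians. The TCR-activated-like class has a median of 0.46 and 36 genes that passed, where 13.1% of all genes rose. In its Xcl1-led and Tnfrsf4-led clusters alone 3 and 0 passed, where 2.6% and 0.163% of all genes rose. The memory-like and cycling-like medians lie near 0, at 0.03 and 0.02.

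Psmb10 and Psme2 were the 2 genes for which both C6M9 libraries lay above both M9 libraries in each of the 6 classes, where 0.949% of 9163 genes tested in all of them did so. Psmb10 had 165 and 171 CPM in C6M9 and 149 and 129 CPM in M9 in memory-like cells. In cycling-like cells it had 159 and 163 CPM in C6M9 and 133 and 122 CPM in M9, and in interferon-like cells 253 and 241 CPM in C6M9 and 238 and 214 CPM in M9. The gap between groups was present in each, and the M9 level in interferon-like cells was above the C6M9 level in memory-like cells. Without TMM, Psmb10 overlapped in interferon-like cells, and Psme2 overlapped in cycling-like and interferon-like cells and over all T cells. Of the other genes, 5 did not overlap, with C6M9 higher, in 5 classes, 12 in 4, 12 in 3, 11 in 2 and 4 in 1. The shares of all genes at these counts were not taken, so the counts are not read as a result. Within a single class both C6M9 libraries were higher for 3040 of 10025 genes in TCR-activated-like cells. In memory-like cells they were for 1929 of 10094 genes.

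A single fit over all library and class sums tested if the 6 classes differ in their group difference. They did for 37 of 48 genes (edgeR quasi-likelihood F test, Benjamini-Hochberg adjusted p under 0.05), against 19.2% of 11347 genes. The lowest adjusted p was that of Psmd7, with log2 differences of 0.77 in TCR-activated-like, 0.23 in killer-lectin-like, 0.28 in cluster 5, 0.37 in interferon-like, 0.05 in memory-like and 0.06 in cycling-like cells (edgeR adjusted p = 6.48e-06). Psme2 followed, with 0.53 in TCR-activated-like, 0.48 in killer-lectin-like, 0.33 in cluster 5, 0.20 in interferon-like, 0.12 in memory-like and 0.07 in cycling-like cells (edgeR adjusted p = 1.06e-05). Psmd14 came next, with 0.57 in TCR-activated-like, 0.23 in killer-lectin-like, 0.10 in cluster 5, -0.11 in interferon-like, -0.17 in memory-like and -0.14 in cycling-like cells (edgeR adjusted p = 1.41e-05). In Psmd7 and Psmd14 the TCR-activated-like difference stood far above the others. None of the 3 immune subunits passed, with edgeR adjusted p-values of 0.110 for Psmb10, 0.206 for Psmb9 and 0.294 for Psmb8. The other 8 that did not pass were Psmb1, Psmd5, Psmd8, Psmd9, Psmd10, Psmd11, Psme4 and Psmf1. Without the TCR-activated-like class, 3 of 48 varied, which were Psma7, Psmd6 and Psme2, near the 4.23% of all genes that did. With 8 clusters in place of classes 9 of 48 did, against 7.08% of all genes. The count over the 6 classes was smaller with C6M9 replicate 2 left out.

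Genes that work with the proteasome were read from lists of 28 partners and 17 genes of MHC class I presentation. Over all T cells, 1 partner fell and 0 rose, a share near the 4.1% of all genes that fell. It was Nfe2l1, the factor that raises proteasome genes when the proteasome is blocked, with 23.8 and 23.9 CPM in the C6M9 libraries, against 29.9 and 34.6 CPM in the M9 libraries. It fell by 0.43 (log2; SE 0.10; edgeR adjusted p = 0.0438), against the direction of the 48 genes. In the TCR-activated-like class 7 of 28 partners rose and 0 fell, where 13.1% of all genes rose and 9.19% fell. Uchl5, a deubiquitinase of the cap, had 69.1 and 68.6 CPM in C6M9 and 37.8 and 40.3 CPM in M9 and rose by 0.82. Adrm1, the receptor that docks it, had 62.4 and 62.0 CPM in C6M9 and 47.1 and 41.8 CPM in M9 and rose by 0.47. Pomp, which matures the new core, had 398 and 379.7 CPM in C6M9 and 303 and 269 CPM in M9 and rose by 0.44. The groups did not overlap in these 3. The deubiquitinase Usp14 rose by 0.41, the ubiquitin shuttle Rad23b by 0.47, and Txnl1 by 0.53.

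Of the MHC class I list 0 of 17 passed over all T cells in either direction, with edgeR, and 1 had an unadjusted p under 0.05. In the TCR-activated-like class 2 of 17 rose and 1 fell, where 13.1% of all genes rose and 9.19% fell, so the list did not stand out there. The chaperones Canx and Calr rose by 0.47 and 0.33. Nlrc5, the transactivator of MHC class I and immune proteasome genes, fell, with 40.6 and 44.5 CPM in C6M9 and 51.2 and 65.8 CPM in M9, a log2 difference of -0.44 (edgeR adjusted p = 0.0398). In each of the other 5 classes, and in either TCR-activated-like cluster alone, 0 genes of both lists passed with edgeR.

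Markers of cell states also differed. TCR-activated markers summed to 198 and 225 CPM in C6M9 and 687 and 457 CPM in M9, with 13 of 15 lower, and 4 of 4 follicular markers were lower. Memory markers summed to 2740.0 and 2677 CPM in C6M9 and 1671 and 1846 CPM in M9, with 6 of 10 higher, and 3 of 9 effector markers were higher and 1 lower. Summed growing-blast markers were 5112 and 4599 CPM in C6M9 and 4249 and 4230 CPM in M9, and 0 of 12 passed. Cycling markers were 4672 and 4251 CPM in C6M9 and 3135 and 4418 CPM in M9, with 6 of 25 higher. Interferon markers were 419.6 and 453 CPM in C6M9 and 329 and 419.9 CPM in M9, with 0 of 13 called. B cell markers were 355 and 383 CPM in C6M9 and 323 and 297 CPM in M9, with 1 of 14 higher, and Cd79a among them was 1.42 and 2.23 CPM in C6M9 and 0.822 and 0.876 CPM in M9. The share of cycling-like cells was 23.6% and 24.6% in C6M9 and 13.9% and 19% in M9. The share of TCR-activated-like cells was 3.77% and 4.67% in C6M9 and 26.8% and 19.8% in M9. Cluster 5, one of the 2 states lowest in the core, held 3.70% and 5.36% of cells in C6M9 and 36.7% and 28.7% in M9. With limma on log2(CPM + 1) over all T cells the median log2 difference of the 48 genes was 0.11, with 43 positive. It was 0.09 with classes weighted equally, with 42 positive, and 0.06 with clusters weighted equally, with 34 positive. In each of these 3 fits 0 of 48 genes passed, where 110, 27 and 12 of 13663 genes rose in that order. The fits were made without TMM, and their medians over all genes were -0.07, -0.08 and -0.08. The lower medians of the 48 genes are to be read beside these. The part of the other markers was not tested.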

How the data were processed

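The deposited matrices hold, for each barcode, whole UMI counts of every gene. Cell Ranger 6.0.0 and the mm10 build were used by the authors, per the submitters' processing notes, with annotation release and intron counting not given in the sources used here. Reads outside exons could therefore add to the counts of genes that overlap a neighbour, such as Psma2, Psmd1 and Psmg3.

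Barcodes stayed in from 500 genes and 1000 UMIs upwards and up to 10% mitochondrial UMIs, 10324 of 11113. Scrublet marked under 0.5% of the cells, so the highest scores were left out at 0.8% per 1000 barcodes, 277 cells, and 123 B cell-like cells were left out too. Clustering used scanpy 1.11.5 with 2000 variable genes, 30 components, 15 neighbours and Leiden resolution 0.6. Sums of UMIs in a library over its T cells, classes (at least 50 cells in every library) and clusters were compared with edgeR 4.0.16 (TMM, quasi-likelihood, two-sided, Benjamini-Hochberg at 0.05 over all genes tested), with DESeq2 1.42.0 and limma 3.58.1 as alternatives; the scripts were tested on simulated data. CPM are TMM-scaled counts per 1000000, log2 differences are C6M9 minus M9, and SEs are of that difference; differences between states, and those without TMM, are of log2(CPM + 1). Levels of different genes were not compared, since 3′ counts are not per length. Clusters of a class, their equal weights, the fits without a class or on clusters, and a match of limma to them were added after seeing the data.

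The 48 genes, their roles, the partner and presentation lists and the rule for named genes were chosen with earlier results of these data known. The named genes are the immune and constitutive catalytic subunits, Psme1 and Psme2, every gene that passed a test (in a class, the 10 largest) and the highest and lowest of each role; the remaining values are given to complete the roles. Of the partners that passed, 1 is not reported here by name. Like-numbered libraries showed a correlation of -0.0655 between their deviations over 13663 genes, so the numbers were not taken to pair the samples. Counting error was not set against the spread between libraries. The sums of a state are smaller than the library totals given above, down to 699603 UMIs in the Tnfrsf4-led cells of C6M9 replicate 1.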

Additional observations from a re-analysis of the deposited data

Results flagged for a closer look

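The edgeR test of whether the group difference varies between the 6 classes passed for 37 of the 48 genes, against 19.2% of all 11347 genes tested. Each value here is an edgeR adjusted p (Benjamini-Hochberg). In the alpha ring it was 2.33e-05 for Psma7, 6.14e-05 for Psma3, 6.55e-05 for Psma6, 0.000182 for Psma5, 0.000477 for Psma2, 0.00107 for Psma1 and 0.00177 for Psma4. In the constitutive beta ring it was 7e-05 for Psmb5, 0.000265 for Psmb3, 0.000569 for Psmb2, 0.00297 for Psmb6, 0.0101 for Psmb7 and 0.0183 for Psmb4. In the base of the cap it was 3.44e-05 for Psmd1, 0.000547 for Psmc2, 0.000818 for Psmc5, 0.00641 for Psmc3, 0.0128 for Psmc6, 0.013 for Psmc4, 0.0263 for Psmc1, 0.0267 for Psmd2 and 0.0338 for Psmd4. In the lid it was 6.48e-06 for Psmd7, 1.41e-05 for Psmd14, 6.71e-05 for Psmd12, 9.28e-05 for Psmd6, 0.0126 for Psmd13 and 0.0126 for Psmd3. In the activators it was 1.06e-05 for Psme2, 0.000647 for Psme1 and 0.00193 for Psme3. In the core chaperones it was 8.44e-05 for Psmg3, 0.000144 for Psmg2, 0.00185 for Psmg4 and 0.00963 for Psmg1. Of the genes that are not subunits it was 0.00027 for Psmc3ip and 0.0251 for Psme2b. Without the TCR-activated-like class 3 of the 48 passed, Psma7, Psmd6 and Psme2, near the 4.23% of all genes that did. With 8 clusters in place of classes 9 of the 48 passed, against 7.08% of all genes.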

How the results depend on the processing

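Over all T cells, where 2 of 48 genes passed, 7 did with DESeq2, 7 with no filter on low counts, 6 with a replicate block, 1 without cells in S or G2M phase, and 0 with limma, with a stricter cell filter, or with classes or clusters weighted equally; leaving out 1 library gave 0 to 11. In TCR-activated-like cells, where 36 passed, the count was 9 without S or G2M cells, 3 in the Xcl1-led cluster alone, 0 in the Tnfrsf4-led cluster alone and 0 with equal cluster weights, and 5 to 37 with 1 library left out. In killer-lectin-like cells, where 1 passed, it was 5 with no filter, 3 with the block, 0 with doublets kept, 0 with the 48 genes allowed among the variable genes (0 were selected, and 91.2% of cells kept their class), and 0 to 13 with 1 library left out. In cycling-like cells it was 2 with no filter and 0 to 1, in cluster 5 0 to 4, in interferon-like cells 0 to 1 and in memory-like cells 0 to 0 with 1 library left out. The class-by-group count of 37 was 3 without the TCR-activated-like class, 9 on clusters and 14 to 29 with 1 library left out. The immune to constitutive log2 difference of -0.02 was 0.075 without S or G2M cells, -0.11 for Psmb9 over Psmb6, 0.23 for Psmb10 over Psmb7, and -0.07 to 0.03 with 1 library left out. The summed level difference of 0.20 was 0.12 without TMM and 0.14 to 0.25 with 1 library left out. The log2 ratio with 1 library left out lay at 0.867 to 0.991 in TCR-activated-like, 1.66 to 1.74 in cluster 5, 0.885 to 0.957 in cycling-like, 1.98 to 2.09 in interferon-like, 1.71 to 1.77 in killer-lectin-like and 1.50 to 1.55 in memory-like cells. The block changed no other call beyond those given. Shares of all genes that passed under these other settings are mostly not given here. The counts above show how the calls shift and are not read as a result about the 48 genes. Of 672 single-gene values under other settings, 594 kept direction and call, 24 newly passed, 14 no longer passed and 40 changed sign, none of the 40 with an adjusted p under 0.05 and the causes not tested. On the log2 scale over all T cells these 40 were as follows, without C6M9 replicate 1 (Psma6 -0.024, Psmd10 -0.027, Psmd11 -0.044, Psmd4 -0.025, Psme4 -0.056); without M9 replicate 2 (Psma6 -0.030, Psmd10 -0.054, Psmd4 -0.035); with limma (Psma6 -0.038, Psmd10 -0.033, Psmd11 -0.062, Psmd4 -0.032, Psme4 -0.070); with equal weight of clusters (Psma6 -0.029, Psmb7 -0.022, Psmb9 -0.040, Psmc3ip -0.124, Psmc6 -0.017, Psmd1 -0.043, Psmd11 -0.092, Psmd14 -0.0077, Psmd2 -0.028, Psmd4 -0.017, Psmd5 -0.081, Psme3 -0.015, Psme4 -0.079, Psmf1 -0.0094); without cells in S or G2M phase (Psma6 -0.151, Psmc3ip -0.168, Psmd1 -0.099, Psmd11 -0.065, Psme3 -0.055); with equal weight of classes (Psmb9 -0.075, Psmd11 -0.022, Psmd4 -0.0095, Psme2b -0.041, Psme4 -0.100, Psmf1 -0.013); without M9 replicate 1 (Psme4 -0.039); with the stricter cell filter (Psme4 -0.0065). With 1 library left out the highest value was 0.151 for Psma6, 0.185 for Psmd10, 0.088 for Psmd11, 0.170 for Psmd4 and 0.094 for Psme4. With 2 libraries a group no exact permutation p could go below 0.3333, and counting error weighs most on low genes such as Psmc3ip, at 12.2 to 17.03 CPM.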
